A study of Rattus norvegicus with 4 samples.

Results

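The genes described here encode subunits of voltage-gated calcium channels: Cacna1a, Cacna1b, Cacna1c, Cacna1d, Cacna1e, Cacna1h, Cacna2d1, Cacna2d2, Cacna2d3 and Cacnb3. They were chosen by name as protein-coding genes of the deposited count table, and all 10 were found among 22293 protein-coding genes and 33506 genes in all. All 10 passed the filter on low counts, as did 14719 protein-coding genes altogether. The tissue was lumbar dorsal root ganglia (DRG), where sensory neuron cell bodies lie among glia. Wistar rats of wild-type genotype received intraperitoneal vehicle (phosphate-buffered saline) or cisplatin, a platinum-based chemotherapeutic, at 0.3 mg/kg on postnatal days 14 and 16. The paper's methods place collection at postnatal day 23, whereas the labels give 16 days after treatment. There were 2 libraries in each group, each from pooled ganglia and named as separate rats in the labels, so that p-values measure the spread between these libraries. Sex was not given for each library in the sources used here.

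A voltage-gated calcium channel opens when the membrane depolarises and lets calcium into the cell. The pore is formed by an alpha1 subunit, which sets the current type, while alpha2delta subunits promote delivery of the channel to the membrane and beta subunits bind inside the cell and shape trafficking and gating. In DRG neurons the N-type and P/Q-type channels drive transmitter release at central terminals, T-type channels set excitability near the resting potential, and the alpha2delta subunits encoded by Cacna2d1 and Cacna2d2 bind the gabapentinoid analgesics.

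Promoter sequence was available from RefSeq (rat assembly GRCr8) for 9 of the 10 genes, and Cacna1h was the gene without an entry. The 250 bases before the start are printed for 3 of them. These are Cacnb3, the gene with the highest level, and Cacna1e, the gene with the lowest. The other is Cacna1c, the only member with replicate 2 above replicate 1 in both groups. Capitals mark the GC box GGGCGG, read on both strands, so that its complement CCGCCC is also in capitals. The windows are chr7:131666301-131666550 on the plus strand for Cacnb3, chr4:154051749-154051998 on the minus strand for Cacna1c, and chr13:69444811-69445060 on the minus strand for Cacna1e, each printed 5′ to 3′ along the gene's strand.
Cacnb3: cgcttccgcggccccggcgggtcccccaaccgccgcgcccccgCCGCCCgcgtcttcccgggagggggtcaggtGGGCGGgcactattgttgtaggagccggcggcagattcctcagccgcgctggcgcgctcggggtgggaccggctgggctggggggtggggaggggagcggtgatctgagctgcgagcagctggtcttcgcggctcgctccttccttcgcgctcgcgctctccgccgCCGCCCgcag
Cacna1c: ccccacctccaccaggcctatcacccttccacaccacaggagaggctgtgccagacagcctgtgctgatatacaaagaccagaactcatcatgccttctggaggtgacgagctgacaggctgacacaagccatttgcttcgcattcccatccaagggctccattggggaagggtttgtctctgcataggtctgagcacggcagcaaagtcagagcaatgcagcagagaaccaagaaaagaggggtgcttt
Cacna1e: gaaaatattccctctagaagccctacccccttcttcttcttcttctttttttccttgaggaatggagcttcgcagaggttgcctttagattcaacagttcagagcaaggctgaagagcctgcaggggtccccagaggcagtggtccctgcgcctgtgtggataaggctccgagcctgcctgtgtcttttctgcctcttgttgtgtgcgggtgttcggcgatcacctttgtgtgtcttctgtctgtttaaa
The Cacnb3 window held 3 GC boxes and 35 CpG dinucleotides, with 76.4% G and C. The Cacna1c and Cacna1e windows held 0 GC boxes, with 3 and 6 CpG dinucleotides. A GC box was present in 9 of the 11 windows of these genes, and in 30.5% of all 33469 windows of this length. Counted by gene, 7 of the 9 genes had a GC box in at least 1 window. The TATA box TATAAA, on either strand, was in 0 of the 11 windows of these genes and in 12.9% of all windows. These matches describe letters in a window and not bound sites.

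The total count per library ranged from 21384801 to 25618417 over the 4 libraries. Both vehicle-treated libraries stood apart in a way that the labels do not describe. Vehicle replicate 1 had a summed level of muscle and blood markers of 541 CPM (counts scaled to library size, with TMM normalisation), against 30.6 to 71.4 in the other 3. Vehicle replicate 2 had 0 counts over 4 Y-linked genes, against 3598 to 4090 in the others. By these genes, vehicle replicate 2 lacked male tissue and the other libraries contained it. Sex was thus not balanced between the groups, and the part of sex in the values given here was not tested. The share of counts in mitochondrially encoded protein-coding genes was 1.46% and 2.52% in vehicle and 5.38% and 4.68% in cisplatin, and its part in the values given here was not tested. Neuronal markers were present throughout, led by Tubb3, a neuronal tubulin, at 2032 to 3583 CPM. The summed level of 6 Schwann cell markers was 26331 and 62430 CPM in vehicle replicates 1 and 2 and 17198 and 50776 CPM in cisplatin replicates 1 and 2. In whole ganglia, fewer cells of a type and less RNA per cell cannot be told apart.

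None of the 10 genes was called different between cisplatin-treated and vehicle-treated rats by edgeR's quasi-likelihood test, where a call needed both a 1.5-fold change or more and a Benjamini-Hochberg adjusted p below 0.05. Over all genes tested, 0 genes (0%) were called higher and 1 gene (0.00679%) lower. With the same fold change and an unadjusted p below 0.05, 412 genes were higher (2.8%) and 783 lower (5.32%), and 0 of the 10 calcium channel genes were among them. DESeq2 also called 0 of the 10, where it called 50 genes higher and 90 lower in all. The log2 fold change was positive for 3 genes and negative for 7, with a median of -0.15 against -0.01 over all genes tested. Without vehicle replicate 1 that median was 0.29, without vehicle replicate 2 it was -0.34, and without cisplatin replicate 2 it was 0.11. With a correction for gene length it was 0.16. The 10 genes had transcript lengths of 2522 to 9810 bases, where the median gene tested had 2371. Over all genes tested, the Spearman correlation of log2 fold change with that length was -0.36. With 2 libraries against 2, an exact two-sided permutation test of 1 gene cannot go below 0.3333, so no single-gene permutation p is given.

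**Figure D1:**
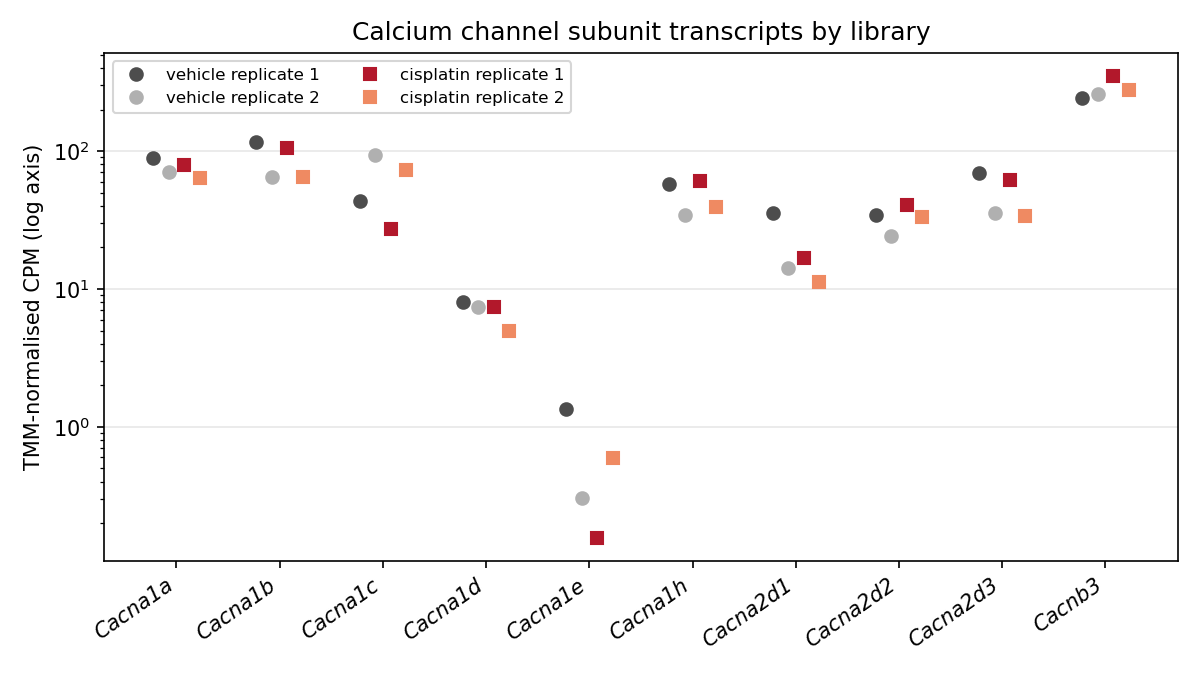
TMM-normalised CPM (log axis) of the 10 calcium channel subunit genes in each of the 4 libraries, with circles for vehicle and squares for cisplatin. The groups overlapped for 9 genes, and for Cacnb3 both cisplatin-treated libraries (350 and 276 CPM) lay above both vehicle-treated libraries (242 and 259 CPM).

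The levels of the 10 genes were first placed in order per transcript length, in FPKM, the authors' values of fragments scaled to length and library size. Cacnb3 was highest, with a mean of 96.6 FPKM ± 3.89 (SD, n = 2) after vehicle and 121.5 ± 20.1 after cisplatin. Its mean over the 4 libraries was 7.31 times that of Cacna2d3, the next gene. The order of Cacnb3 over Cacna2d3, and of Cacna2d3 over Cacna1b, held in 4 of 4 libraries. Between Cacna2d3 and Cacna1d came 6 genes (Cacna1b, Cacna1a, Cacna1c, Cacna2d2, Cacna1h and Cacna2d1) with vehicle means from 5.71 to 9.15 FPKM. Neighbours in that middle range were at most 1.28-fold apart, and no neighbouring pair kept its order in all 4 libraries. Genes further apart in it did, such as Cacna1b and Cacna1a, each above Cacna1h and Cacna2d1 in 4 of 4 libraries. Cacna1d (0.763 FPKM ± 0.0495 in vehicle) lay below all of these and Cacna1e (0.107 ± 0.0964) below Cacna1d, in 4 of 4 libraries.

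Among the high-voltage-activated neuronal pores, Cacna1a encodes the P/Q-type channel (chr19:25526751-25749550 in Rnor_6.0, plus strand). It was counted at 2245 and 1399 reads in vehicle replicates 1 and 2 and at 2025 and 1509 reads in cisplatin replicates 1 and 2, or 89.7, 71.1, 79.7 and 64.1 CPM. The groups overlapped, with the lower value of each group in its replicate 2. The log2 fold change, cisplatin over vehicle, was -0.16 (SE 0.22, 95% interval -0.70 to 0.38, adjusted p = 0.82). Cacna1b, which encodes the N-type channel (chr3:1740024-1924827, minus strand), was at 117 and 64.4 CPM in vehicle and 106 and 64.6 CPM in cisplatin. In both groups replicate 1 was the higher library, by 1.81 times in vehicle and 1.64 times in cisplatin, which was more than the difference between the groups. Its log2 fold change was -0.09 (SE 0.37, interval -1.01 to 0.84, adjusted p = 0.949). Without vehicle replicate 1 the log2 fold change of Cacna1b was 0.41, and without cisplatin replicate 1 it was -0.48.

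Cacna1e encodes the R-type channel (chr13:71906702-72367980, minus strand) and had the fewest counts. It had 34 and 6 reads in vehicle and 4 and 14 reads in cisplatin, with exact Poisson intervals of 23.5 to 47.5, 2.2 to 13.1, 1.09 to 10.2 and 7.65 to 23.5. The intervals cover the counting of reads only, and several reads can come from 1 molecule where no molecular identifiers were used. The groups overlapped, and vehicle replicate 1 alone lay above the other 3 libraries. Cisplatin over vehicle gave -1.19 on the log2 scale (SE 0.94, interval -3.54 to 1.15, adjusted p = 0.686), and without vehicle replicate 1 it was 0.29. The intervals of the vehicle-treated libraries, taken on reads before scaling to library size, did not overlap each other. Where several reads come from 1 molecule such intervals are too narrow. The gap therefore does not show a spread larger than counting error.

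The L-type pores are encoded by Cacna1c, which is also used by muscle and glial cells, and by Cacna1d, which opens at more negative potentials. Cacna1c (chr4:150641066-150829913, minus strand) had 1080 and 1859 reads in vehicle and 696 and 1705 reads in cisplatin, or 43.1, 94.4, 27.4 and 72.5 CPM. It was the 1 member of 10 with replicate 2 above replicate 1 in both groups, at 0.457 times in vehicle and 0.378 times in cisplatin for replicate 1 over replicate 2. Replicate 1 was the higher in both groups for 7 members, against 34.2% of all genes tested, while 38.2% had the reverse order. This was not particular to the members. Replicate 1 was also higher in both groups for 9 of 10 pan-neuronal markers, 14 of 15 sensory neuron markers and 9 of 13 other channel subunit genes tested. It was lower in both groups for 6 of 6 Schwann cell markers. The summed Schwann cell, macrophage and endothelial and mural markers each ran in the same order as Cacna1c across the 4 libraries. The summed satellite glia markers and fibroblast and meninges markers did not, both being higher in vehicle replicate 1 than in cisplatin replicate 2. The part of these cell types in the Cacna1c levels was not tested. The log2 fold change of Cacna1c was -0.46 (SE 0.56, interval -1.85 to 0.93, adjusted p = 0.796), and it ranged from -1.33 to 0.21 as each library was left out. Cacna1d (chr16:6112150-6405117, minus strand) had 200 and 145 reads in vehicle and 189 and 117 reads in cisplatin. Cisplatin replicate 2 was its lowest library at 4.97 CPM, and the other 3 lay between 7.37 and 7.99 CPM. Its log2 fold change was -0.31 (SE 0.30, interval -1.07 to 0.45, adjusted p = 0.748).

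Cacna1h encodes the T-type channel that carries most of the low-voltage-activated current of DRG neurons (chr10:14730941-14788617, minus strand). It was at 57.4 and 34.6 CPM in vehicle and 61.0 and 39.1 CPM in cisplatin. Both groups had 1 high and 1 low library, replicate 1 being the higher in each. Cisplatin over vehicle gave 0.12 on the log2 scale (SE 0.34, interval -0.72 to 0.96, adjusted p = 0.918), and scaled to the pan-neuronal markers it was -0.18. Cacna1h overlaps Tpsg1 on the opposite strand, a gene with 64 counts over the 4 libraries, and whether the counting used strand was not given in the sources used here.

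**Figure D2:**
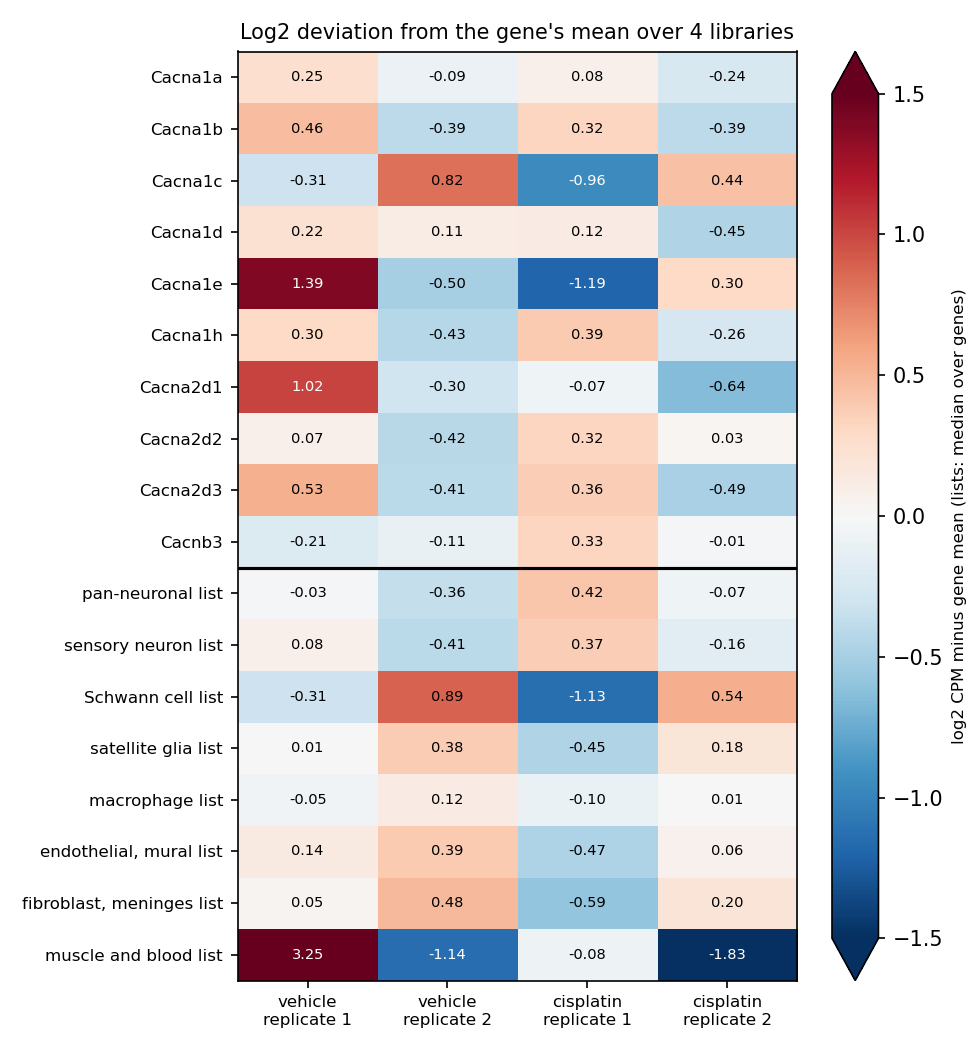
Log2 CPM of each gene minus its mean over the 4 libraries, with the median over genes for each marker list below the line; red is above and blue below the mean. Cacna1c and the Schwann cell, satellite glia, macrophage, endothelial and mural, and fibroblast and meninges lists were above their means in both replicates numbered 2. The satellite glia, endothelial and mural, and fibroblast and meninges lists were also above them in vehicle replicate 1 (0.01, 0.14 and 0.05). Cacna1a, Cacna1b, Cacna1d, Cacna1e, Cacna2d1 and Cacna2d3 were highest in vehicle replicate 1, where the muscle and blood list reached 3.25.

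Of the alpha2delta subunits, Cacna2d1 (chr4:15710417-16130848, minus strand) encodes the main gabapentinoid-binding subunit and is also the alpha2delta subunit of skeletal muscle. It had 889 and 279 reads in vehicle and 425 and 263 reads in cisplatin, or 35.5, 14.2, 16.7 and 11.2 CPM. The groups overlapped, and vehicle replicate 1 lay above the other 3 libraries. Its log2 fold change was -0.83 (SE 0.47, interval -2.01 to 0.34, adjusted p = 0.588). Without vehicle replicate 1, the library with the high muscle markers, it was -0.02. With that library left out and the rest scaled to the pan-neuronal markers, it was -0.53. The muscle channel genes Cacna1s and Cacng1 were also highest in that library, at 178 and 99 reads against at most 29 and 5 in the others, and their part in the Cacna2d1 level was not tested.

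Cacna2d2 (chr8:116154736-116284985, plus strand), the other gabapentinoid-binding subunit, had 860 and 480 reads in vehicle and 1034 and 784 reads in cisplatin, or 34.4, 24.4, 40.7 and 33.3 CPM. The groups overlapped by a small margin, cisplatin replicate 2 lying below vehicle replicate 1. The log2 fold change was 0.33 (SE 0.25, interval -0.28 to 0.95, adjusted p = 0.667). Cacna2d1 and Cacna2d2 were the members whose sign did not change under any of the 18 alternatives run. The values came near 0 all the same, at 0.05 for Cacna2d2 scaled to the pan-neuronal markers and -0.02 for Cacna2d1 without vehicle replicate 1. All alternatives drew on the same libraries, so an unchanged sign is not independent evidence of a difference. Cacna2d3 (chr16:4871650-5795825, minus strand), whose product does not bind gabapentinoids with high affinity, was at 68.9 and 35.8 CPM in vehicle and 61.3 and 33.9 CPM in cisplatin. Replicate 1 was 1.92 times replicate 2 in vehicle and 1.81 times in cisplatin, and the log2 fold change was -0.14 (SE 0.41, interval -1.17 to 0.89, adjusted p = 0.922).

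The balance between subunits of a class needs no normalisation between libraries. As a share of the summed FPKM of the 4 alpha2delta genes, Cacna2d1 made up 23.4% and 17.7% in vehicle and 13.0% and 13.5% in cisplatin. Cacna2d2 made up 19.4% and 26.1% in vehicle and 27.2% and 34.5% in cisplatin. The groups did not overlap for either share, and each gave 0.3333 in the exact two-sided permutation test, the smallest p it allows. Of 21 shares computed over the pore, alpha2delta and beta classes, 5 had groups that did not overlap. With no difference between the groups, a share has a probability of 0.3333 of showing no overlap. The smallest Benjamini-Hochberg adjusted permutation p was 0.778. In reads of this pair alone, a ratio chosen after its values were seen, Cacna2d1 took 50.8% in vehicle replicate 1 (Wilson 95% interval 48.5 to 53.2) and 36.8% in vehicle replicate 2 (33.4 to 40.2). It took 29.1% in cisplatin replicate 1 (26.9 to 31.5) and 25.1% in cisplatin replicate 2 (22.6 to 27.8). These intervals cover counting error only, and those of the vehicle-treated libraries did not overlap each other.

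**Figure D3:**
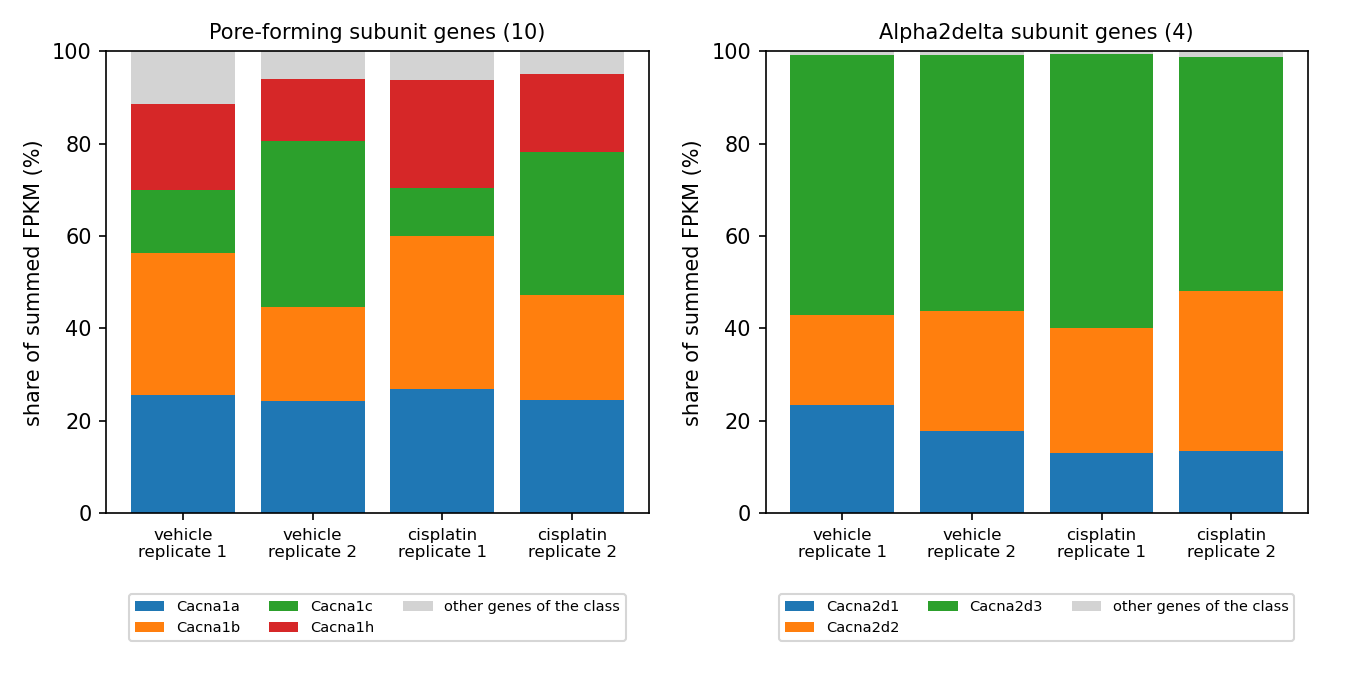
Share of summed FPKM (%) taken by each gene within the 10 pore-forming and the 4 alpha2delta genes, in each library. Cacna1c took 36.0% and 30.9% of the pore sum in the replicates numbered 2 against 13.7% and 10.3% in those numbered 1, and Cacna2d1 took a smaller share of the alpha2delta sum in both cisplatin-treated libraries.

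Within the pore genes, the share of Cacna1a was 25.6%, 24.3%, 27.0% and 24.5% in vehicle replicates 1 and 2 and cisplatin replicates 1 and 2. That of Cacna1b was 30.7%, 20.3%, 33.1% and 22.8%, and that of Cacna1c was 13.7%, 36.0%, 10.3% and 30.9%. The shares of Cacna1b and Cacna1c thus lay closer between same-numbered libraries than between libraries of 1 group, while that of Cacna1a was nearly level. The P/Q-, N- and R-type genes together made up 44.7% to 60.1% of the pore sum, and the L-type genes 13.3% to 38.9%.

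Cacnb3 encodes the beta3 subunit (chr7:140315368-140324902, plus strand), which pairs with N-type and other high-voltage-activated pores. It had 6049 and 5089 reads in vehicle and 8891 and 6500 reads in cisplatin, or 242, 259, 350 and 276 CPM. It was the only member whose groups did not overlap, with both cisplatin-treated libraries above, a pattern shown by 3038 of the genes tested (20.6%); a further 21.2% had both below, and 0 members did. The gap between cisplatin replicate 2 and vehicle replicate 2 was smaller than that between the cisplatin-treated libraries. The log2 fold change was 0.32 (SE 0.22, interval -0.22 to 0.87, adjusted p = 0.638), which did not pass the test. The 10 pan-neuronal markers had a median log2 fold change of 0.28, and scaled to them the log2 fold change of Cacnb3 was 0.00. Without vehicle replicate 1 it was 0.28 and without vehicle replicate 2 it was 0.38. Cacnb3 took 87.6% to 91.3% of the summed FPKM of the 4 beta genes in the 4 libraries.

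**Figure D4:**
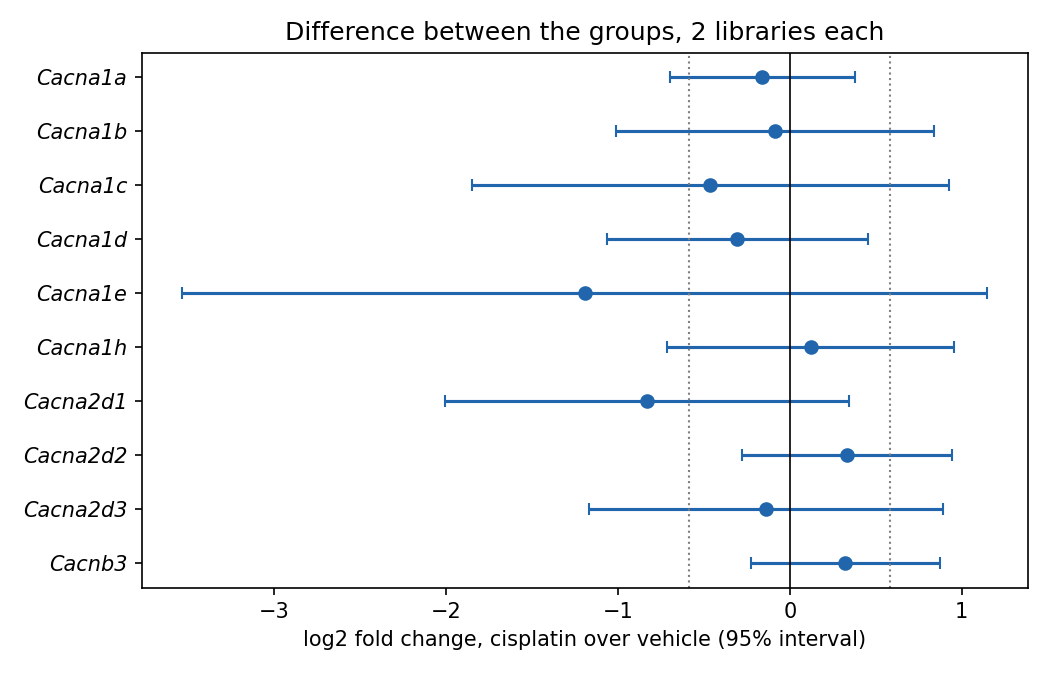
Log2 fold change of each gene, cisplatin over vehicle, with its 95% interval from edgeR's quasi-likelihood fit; dotted lines mark a 1.5-fold change. All 10 intervals include 0, and they are widest for Cacna1e and Cacna1c.

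The other 16 voltage-gated calcium channel subunit genes included 13 that passed the filter, of which edgeR and DESeq2 each called 0 in either direction and 1 passed at unadjusted p with a 1.5-fold change. Their median log2 fold change was -0.11. Cacna1g, a second T-type pore gene, had 213 and 119 reads in vehicle and 96 and 92 reads in cisplatin, so that both cisplatin-treated libraries were below. Its log2 fold change was -0.92 (SE 0.30), at an unadjusted edgeR p of 0.0256 and an adjusted p of 0.509. Cacnb4, a beta subunit gene, had 311 and 138 reads in vehicle and 151 and 129 reads in cisplatin. Both cisplatin-treated libraries were lower in CPM (log2 fold change -0.77, adjusted p = 0.532). Without vehicle replicate 1 the log2 fold change was -0.29 for Cacnb4 and -0.64 for Cacna1g. The third T-type gene, Cacna1i, ranged from 28 to 182 reads with overlapping groups (-0.68, and 0.94 without vehicle replicate 1). Cacnb1 (0.40), Cacnb2 (-0.11) and Cacna2d4 (-0.10) had overlapping groups as well. Cacna1s, the pore of skeletal muscle, had 178 and 21 reads in vehicle and 29 and 15 reads in cisplatin, so that its log2 fold change of -2.20 rested on vehicle replicate 1. Of the gamma subunit genes, several of which serve AMPA receptors rather than calcium channels, Cacng7 (0.35), Cacng4 (-0.43), Cacng2 (0.02), Cacng5 (-0.45) and Cacng3 (0.62) had overlapping groups. Cacng8 was higher in both cisplatin-treated libraries (2.95 and 2.38 CPM against 2.36 and 2.13), which gave an adjusted p of 0.825 at a log2 fold change of 0.25. Cacng1, Cacna1f and Cacng6 did not pass the filter, with at most 1 read in vehicle replicate 2 and 0 in cisplatin replicate 2.

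Genes that act with these channels were examined in 7 further lists, and edgeR and DESeq2 each called 0 of them, where 7 passed at unadjusted p with a 1.5-fold change. Of 18 tested channel regulators, 10 had positive and 8 negative fold changes (median 0.07), and Calm2, a calmodulin gene, was at 169 and 162 CPM in vehicle and 262 and 242 CPM in cisplatin. Its log2 fold change was 0.61 at an unadjusted p of 0.0198 and an adjusted p of 0.509 in edgeR's test. Of 17 genes of the G-protein pathway that inhibits N-type channels, the median was -0.09. Gng3, a G-protein gamma subunit, was at 280 and 244 CPM in vehicle and 420 and 363 CPM in cisplatin (0.58, adjusted p = 0.516). Gnai1, an inhibitory alpha subunit, was at 94.5 and 93.1 CPM in vehicle and 50.3 and 64.7 CPM in cisplatin (-0.71, adjusted p = 0.509). Neither gene's groups overlapped, where 20.6% of all genes tested had both cisplatin-treated libraries above and 21.2% had both below. Both genes were named for a small unadjusted p, and neither passed the test. The 21 release-site partners had a median of -0.29, and 18 of them were higher in replicate 1 of both groups.

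Of the 10 genes for alpha2delta ligands and trafficking, 7 had negative fold changes (median -0.40). Lrp1, an endocytic receptor that binds alpha2delta-1, was at 229 and 279 CPM in vehicle and 121 and 177 CPM in cisplatin (log2 fold change -0.77, adjusted p = 0.509). Lrp4, of the same receptor family, was at 29.7 and 32.1 CPM in vehicle and 20.9 and 22.5 CPM in cisplatin (-0.51, adjusted p = 0.515). Both had all cisplatin-treated libraries below all vehicle-treated ones, as did 21.2% of all genes tested. They were named for a small unadjusted p, which favours groups that do not overlap. With the gene length correction the log2 fold changes were -0.28 for Lrp1 and -0.17 for Lrp4. The Lrp1 level stood beside a summed fibroblast and meninges marker level of 5660 and 7498 CPM in vehicle and 2757 and 5402 CPM in cisplatin. The part of those cells in the Lrp1 level was not tested.

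Calcium downstream of the channels was examined through 3 lists. The 12 tested genes of calcium stores and store-operated entry had a median of -0.18. Itpr1, the store's inositol trisphosphate receptor, was at 8.63 and 8.53 CPM in vehicle and 3.86 and 5.31 CPM in cisplatin (-0.90, adjusted p = 0.509). Ryr1, the skeletal muscle ryanodine receptor, had 312 reads in vehicle replicate 1 and 20 to 31 in the others (-2.72, adjusted p = 0.516). The high Ryr1 value thus lay in the library with high muscle markers. The 16 genes of calcium clearance and buffering had a median of 0.00, and Slc8a1, a sodium-calcium exchanger, was at 7.35 and 3.76 CPM in vehicle and 2.52 and 2.89 CPM in cisplatin (-1.04, adjusted p = 0.519). The 18 calcium effectors had a median of -0.08. Camk2b, a calmodulin-dependent kinase subunit, was at 131 and 143 CPM in vehicle and 79.7 and 94.7 CPM in cisplatin (-0.65, adjusted p = 0.509). Without vehicle replicate 1 the log2 fold changes were -0.47 for Slc8a1, -0.89 for Itpr1 and -0.70 for Camk2b.

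Cell type markers varied between libraries beside these values, with 0 calls in edgeR's test, 5 at unadjusted p with a 1.5-fold change and 1 in DESeq2. Sensory neuron markers had positive fold changes for 13 of 15 genes (median 0.31) and pan-neuronal markers for 9 of 10 genes. Schwann cell markers had negative fold changes for 6 of 6 genes (median -0.52) with overlapping groups for all of them. Medians were -0.17 for satellite glia, -0.12 for macrophages, -0.43 for endothelial and mural cells, -0.44 for fibroblasts and meninges and -3.10 for muscle and blood. The endothelial marker Cldn5 was at 0 counts in all 4 libraries, where a count of 3 corresponds to 0.118 to 0.152 CPM, while Cdh5 of the same list was at 26.1 to 36.1 CPM.

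**Figure D5:**
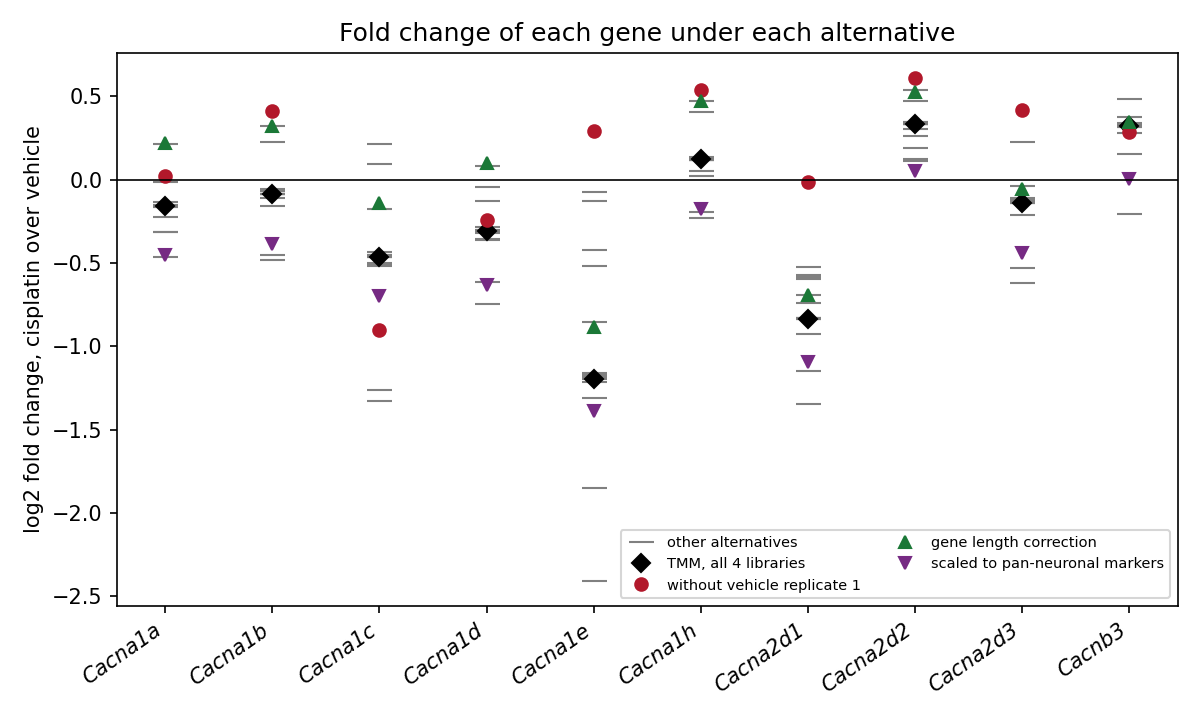
Log2 fold change of each gene, cisplatin over vehicle, with all 4 libraries (diamond) and under each alternative run. Without vehicle replicate 1 (red circles), Cacna2d1 moved from -0.83 to -0.02 and Cacna1b, Cacna1a, Cacna1e and Cacna2d3 moved above 0.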

How the data were processed

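Poly-A RNA of lumbar DRGs was sequenced after vehicle or cisplatin. The authors mapped reads with HISAT2 2.0.5 to Rnor_6.0 and deposited raw counts per gene, which were tested here. The submitters' processing notes also name StringTie 1.3.3b and featureCounts 1.5.0-p3, but the strand setting was not given in the sources used here. The authors also deposited FPKM values, each the count over gene length and over 1 constant per library, and these were used for levels and shares. Samples were grouped by treatment from their labels.

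Protein-coding genes kept by filterByExpr were TMM-normalised and tested without covariates in edgeR 4.0.16 (quasi-likelihood, R 4.3.3), with Benjamini-Hochberg adjustment over all 14719 genes. Standard errors were derived from F. Alternatives used DESeq2 1.42.0, limma 3.58.1 on log2(FPKM + 1) and log2(FPKM + 0.1), which understates the change of low genes, other scalings and filters, a lowess length correction of span 0.3, the replicate number as a block, and each library left out in turn. A setting without vehicle replicate 1 and scaled to the pan-neuronal markers was chosen after seeing the data. The tests were checked on simulated data that had larger changes than 1.5-fold and less spread between libraries than these data. That check does not show how the tests perform at a 1.5-fold change or at the spread seen here. Members and gene lists were chosen with earlier results of these data known. All members, and the other subunit genes, were named. From other lists, genes were named if called or else up to 4 with the smallest unadjusted p under 0.05, and marker lists by some of their highest genes and those at 0. No genome was used here, and promoter windows came from RefSeq. Results for 1 marker gene are not reported here.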

Additional observations from a re-analysis of the deposited data

How the results depend on the processing

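Of the 10 members, 0 were called higher under every alternative run, and 0 lower under every alternative except the replicate block, which called 1. The paired analysis took the replicate number of the titles as a block. Deviations from the group means correlated at 0.444 between same-numbered libraries across genes, but with 2 pairs and different rats these libraries share only a number. The replicate block called Cacna2d1 lower (log2 fold change -0.74, adjusted p = 0.0229), beside 529 genes called higher and 1136 lower of all genes tested (3.59% and 7.72%). It also gave Cacna1c an adjusted p of 0.0168 at a fold change under 1.5. With the length correction added, the block called 277 higher and 805 lower and 0 members, though Cacna1h (0.47, adjusted p = 0.0348) and Cacna2d2 (0.54, adjusted p = 0.0324) were past the adjusted p at a fold change under 1.5.

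Over all genes, calls were 0 higher and 1 lower with edgeR and all 4 libraries. They were 1 higher without a filter, 1 higher with at least 10 counts in every library, 50 higher and 90 lower with DESeq2, 2 and 2 with log2(FPKM + 1), 1 higher with log2(FPKM + 0.1), 0 lower when scaled to pan-neuronal markers, and 412 and 783 at unadjusted p. Leaving out 1 library gave 0 to 4 higher and 0 to 4 lower. The added setting without vehicle replicate 1 and scaled to the pan-neuronal markers gave 7 and 30. The cause of these changes was not tested. A lone library left in a group is assumed to vary like the other group.

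The members' median of -0.15 ranged from -0.40 to 0.29 as each library was left out, and was -0.45 when scaled to pan-neuronal markers, where the median of all genes was -0.30. Signs reversed with the length correction for Cacna1a (0.22), Cacna1b (0.32) and Cacna1d (0.10), and with the block and length correction together at 0.21, 0.32 and 0.081. Scaling to pan-neuronal markers reversed Cacna1h (-0.18), and the added setting reversed Cacnb3 (-0.21). Leaving out 1 library gave -0.32 to 0.024 for Cacna1a, -0.48 to 0.41 for Cacna1b, -1.33 to 0.21 for Cacna1c, -2.41 to 0.29 for Cacna1e, -0.23 to 0.54 for Cacna1h and -0.62 to 0.42 for Cacna2d3. None of these reversed values passed the threshold. Cacna1e had too few counts for the filter of 10 in every library, so that alternative gave it no value, and DESeq2 gave it no adjusted p.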
